A study of Mus musculus with 4 samples.

Results

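The 10 genes described here encode secreted ligands that act on blood and lymph vessels: Vegfa, Vegfb, Vegfc, Figf (the older symbol of Vegfd), Pgf, Angpt1, Angpt2, Angptl2, Angptl4 and Apln. They were taken by symbol from 2 tables of 35604 gene rows each, 1 for cultured cells and 1 for tumours. All 10 symbols were found in a single row of each table. All 10 had an estimate in the tumours, and 9 had one in culture, where the row of Angptl2 had failed. Of these, 7 in culture and 10 in the tumours reached 1 FPKM in either library, the minimum for a comparison, against 12676 and 15550 genes in all. Pgf and Angptl4 stayed under that minimum in culture. FPKM is a measure of transcript abundance corrected for gene length and library size, so that levels of different genes in a library can be ranked.

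The study asked which transcripts differ when Schwann cells lacking Nf2, the gene of the tumour suppressor merlin, meet NXD30001, named in the series title as an HSP90 inhibitor. All 4 libraries derive from ESC-FC1801, embryonic mouse Schwann cells of FVB/N background with Nf2Flox/Flox alleles deleted in vitro by an adenovirus carrying Cre, so the untreated groups carry the deletion too. The 2 culture groups received DMSO or 1 µM NXD30001 for 24 h, in serum-free N2 medium with neuregulin-β1 and forskolin. The 2 tumour groups were ESC-FC1801 tumours of mice given vehicle or NXD30001 at 100 mg/kg, 3 times a week for 4 weeks. Each group has 1 library. The strain and age of the host mice, and whether a library pools animals, are not given in the sources used here.

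In a tumour, VEGF-A made by tumour cells binds the receptors FLT1 and KDR on endothelial cells and drives vessel growth, with neuropilins as co-receptors. VEGF-B and PGF bind FLT1, while VEGF-C and VEGF-D bind FLT4, the receptor of lymphatic vessels. Angiopoietin 1 activates the receptor TEK and stabilises vessels, and angiopoietin 2 can oppose it. Angiopoietin-like 4 is a secreted inhibitor of lipoprotein lipase with effects on vessels, angiopoietin-like 2 is a circulating relative, and apelin acts through the receptor APLNR. Vegfa, Angptl4 and Apln are known targets of hypoxia-inducible factors (HIF), and HIF1A is a known client of HSP90.

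Since each group is a single library, values carry no replicate error and no test was run, so "higher" and "lower" describe these libraries only. Differences are log2(FPKM + 1) of the treated library less that of the untreated one, a scale that makes changes of low genes look smaller than they are. The model error given beside a difference is the standard error of the plain log2 ratio that follows from the fold and the statistic in the authors' deposited table. It covers no spread between cultures or mice, and the 95% ranges below are 1.96 such errors on either side of the log2 ratio. Its median was 1.01 (SE, log2) in culture and 0.81 in the tumours for genes of 1 to 3 FPKM, and 0.69 and 0.30 for genes of 30 to 100 FPKM. FPKM gives no depth, but the lowest genes put the treated library at 1.05 times the depth of the untreated one in culture and at 1.19 times in the tumours. The Schwann cell transcription factor gene Sox10 was at 8.42 and 4.40 FPKM in culture and 47.0 and 139.8 FPKM in the tumours. S100b, another marker of these cells, was under 1 FPKM in every library, at 0.563, 0.0538, 0.305 and 0 FPKM. Nf2 RNA was at 15.9 and 12.5 FPKM in culture and 57.2 and 42.8 FPKM in the tumours, a whole-gene level that does not show whether the floxed exons are missing.

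In culture, 6 of the 7 compared ligands were lower in the treated cells, by differences of -0.44 to -1.31, and Vegfc alone was higher, by 0.52. Vegfb, Apln and Angpt1 were at least 2-fold lower and no ligand was 2-fold higher. Among all compared genes 24.8% were at least 2-fold lower, and 12.6% were 2-fold higher or more, so 3 of 7 lower genes is a count to be read against a general downward shift. The median difference was -0.81 over the ligands and -0.25 over all genes, and with differences centred on the latter 1 of the 7, Vegfb, was at least 2-fold lower. In the tumours the ligands did not move together. Of 10, 5 were above and 5 below 0, with a median of 0.04 beside -0.03 over all genes. Angptl4 alone was at least 2-fold lower, where 6.93% of all genes were, and none was at least 2-fold higher, where 7.32% were.

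**Figure D1:**
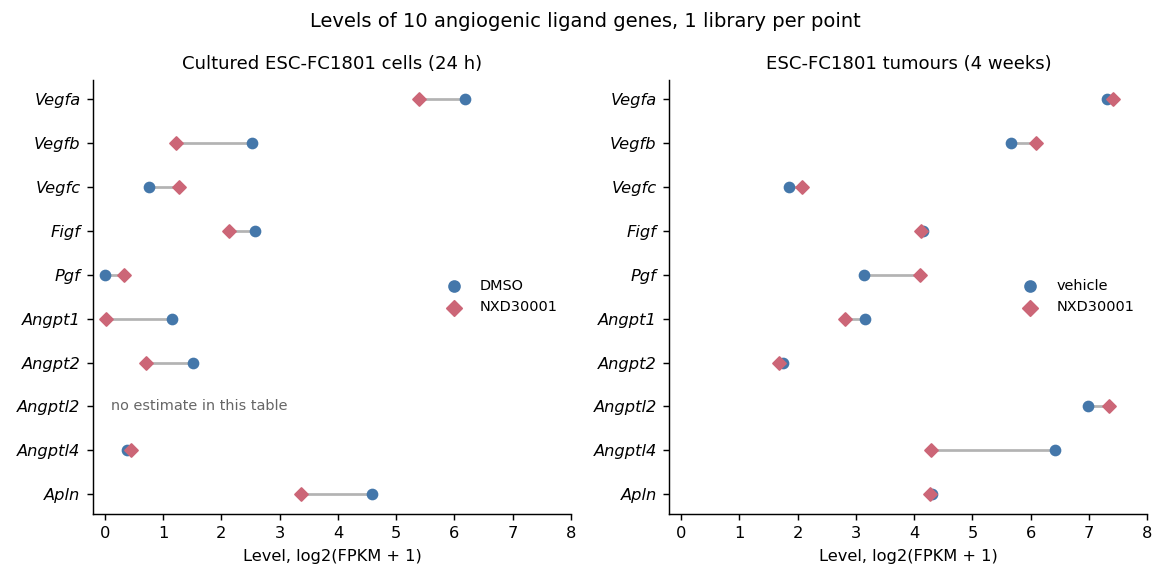
Levels of the 10 ligand genes as log2(FPKM + 1) in the DMSO or vehicle library (blue circles) and the NXD30001 library (red diamonds), joined by a grey line, in culture (left) and tumours (right). The lines in culture run mostly to lower treated levels, while in the tumours the long line is that of Angptl4, from 84.1 to 18.4 FPKM.

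Vegfa (ENSMUSG00000023951, mm9 chromosome 17 from 46153942 to 46169318) was the most abundant of the measured ligands in all 4 libraries. It stood at 71.8 FPKM in DMSO cells and 41.2 FPKM in treated cells, which put it above 84.5% and 78.5% of the compared genes. The treated level was 0.574 of the untreated one, with a 95% range of 0.296 to 1.11 that includes 1, and the authors' deposited table did not call it. It was at 158 FPKM in the vehicle tumour and 170 FPKM in the treated one, a ratio of 1.08 with a range of 0.848 to 1.36. After 4 weeks of dosing the treated tumour library thus held as much Vegfa RNA as the vehicle library within that error. The range holds no spread between mice, so it does not bound the difference between treated and vehicle-treated mice.

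Vegfb (ENSMUSG00000024962, chromosome 19 from 7056963 to 7062141) had the largest difference of the ligands in culture on the log2(FPKM + 1) scale. It was at 4.79 FPKM in DMSO cells and 1.33 FPKM in treated cells, a log2 difference of -1.31 and a ratio of 0.277 (range 0.0854 to 0.900). In the tumours it was the second VEGF gene by level, at 49.4 and 66.8 FPKM, a log2 difference of 0.43 in the other direction (ratio 1.35, range 0.929 to 1.97). The authors' deposited table called neither. The 2 differences were not compared by a test, since each group has 1 library.

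Pgf (ENSMUSG00000004791, chromosome 12 from 86507589 to 86518246), the placental growth factor gene, was close to absent from culture, listed at 0 in DMSO cells and at 0.249 FPKM in treated cells. It was at 7.78 FPKM in the vehicle tumour and 16.2 FPKM in the treated one. This was the largest difference upward among the ligands (0.97), with a ratio of 2.08 and a range of 1.13 to 3.86. The plain ratio is past 2-fold while the log2(FPKM + 1) difference is not. In the authors' deposited table it has a q-value of 0.330 and no call.

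The genes of the lymphatic factors differed by less than their error in both settings. Vegfc (ENSMUSG00000031520, chromosome 8 from 55162960 to 55272450) was at 0.687 and 1.42 FPKM in culture, and its tumour levels were 2.60 and 3.19 FPKM. Its ratio of 2.06 in culture has a range of 0.457 to 9.30, which includes 1. Figf (ENSMUSG00000031380, chromosome X from 160811310 to 160840582) was at 4.94 and 3.39 FPKM in culture, and its tumour levels were 16.8 and 16.4 FPKM. The tumour ratio of 0.971 had a range of 0.604 to 1.56.

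Within a library, the share of each gene in the summed FPKM of the 5 VEGF family genes does not depend on how the tables were scaled. Vegfa made up 87.3% of that sum with DMSO and 86.6% with NXD30001 in culture, although the sum itself was 82.2 and 47.6 FPKM. In the tumours Vegfa made up 67.4% of the sum with vehicle and 62.4% with NXD30001, of sums of 235 and 273 FPKM. The tumours held a larger share of Vegfb, 21.0% and 24.5% beside 5.83% and 2.79% in culture. Pgf came to 3.31% with vehicle and 5.94% with NXD30001 in the tumours, and in culture to 0% and 0.524%. Figf had a like share in all 4 libraries, from 5.99% to 7.17%. The tumours also hold host cells, and RNA of host and tumour cells cannot be told apart in these tables.

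**Figure D2:**
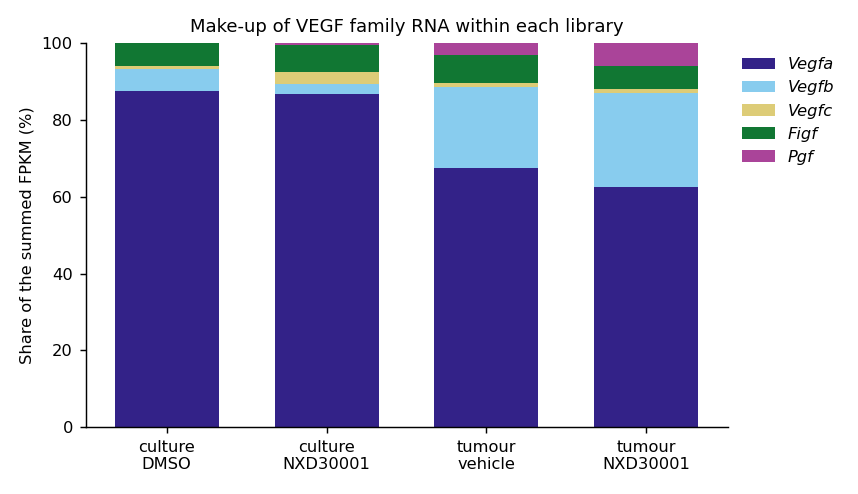
Share (%) of Vegfa, Vegfb, Vegfc, Figf and Pgf in their summed FPKM in each of the 4 libraries (bars, 1 library each). Vegfa takes 87.3% and 86.6% of the bar in culture and 67.4% and 62.4% in the tumours, where Vegfb fills 21.0% and 24.5%.

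Of the angiopoietins, Angpt1 (ENSMUSG00000022309, chromosome 15 from 42256273 to 42508523) was the only ligand that the authors' deposited table called in culture, where it called 7.14% of compared genes lower. It was at 1.23 FPKM in DMSO cells and 0.0183 FPKM in treated cells, a log2 difference of -1.13. The plain log2 ratio was -6.07 with a model error of 1.60, beside an error of 2.04 that 1 fragment in each library would give. The treated level is near the floor of the table, and the ratio of 0.0149 has a range of 0.00170 to 0.130. In the tumours Angpt1 was at 7.96 and 6.02 FPKM, a ratio of 0.756 with a range of 0.474 to 1.21.

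Angpt2 (ENSMUSG00000031465, chromosome 8 from 18595131 to 18803189) was at 1.87 and 0.636 FPKM in culture, a ratio of 0.341 with a range of 0.0822 to 1.41. Its locus in the tables is shared with Mcph1, which was at 77.5 and 12.0 FPKM in culture, and reads of overlapping genes are not assigned with certainty. Angpt2 was the lowest of the tumour ligands, at 2.37 FPKM in the vehicle tumour and 2.19 FPKM in the treated one (ratio 0.926, range 0.441 to 1.95), and Mcph1 was at 10.2 and 9.95 FPKM. The balance of the 2 angiopoietins differed between the settings. With vehicle the tumour held 3.36 times as much Angpt1 as Angpt2 RNA per length, and with NXD30001 2.74 times. In culture Angpt2 was instead the higher, 1.51 times Angpt1 with DMSO and 34.6 times with NXD30001, all from levels under 2 FPKM. The model errors belong to the treated to untreated ratio of each gene, so none is given for this balance within a library. The 34.6-fold value rests on an Angpt1 level of 0.0183 FPKM, near the floor.

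Angptl4 (ENSMUSG00000002289, chromosome 17 from 33911849 to 33918488) had the largest difference of any ligand in the tumours and was the only one called there by the authors' deposited table, which called 2.45% of compared genes lower. It was at 84.1 FPKM in the vehicle tumour and 18.4 FPKM in the NXD30001 tumour, a log2 difference of -2.13 with a model error of 0.33. The vehicle level was 4.56 times the treated one, and the ratio of treated to vehicle of 0.219 has a range of 0.140 to 0.344. Its place among the compared genes went from above 86.6% to above 53.9% of them. In culture the gene was near the floor, at 0.299 FPKM in DMSO cells and 0.369 FPKM in treated cells, with a range of 0.216 to 7.05 for their ratio. Fewer cells with the transcript and less RNA per cell cannot be told apart in a whole tumour.

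Angptl2 (ENSMUSG00000004105, chromosome 2 from 32988941 to 33227006) was the second ligand by level in both tumour libraries, at 126 FPKM in the vehicle tumour and 161 FPKM in the treated one. The ratio of 1.27 has a range of 0.754 to 2.16, and the difference of 0.35 was within 1 model error of 0.39. The locus is shared with Ralgps1, at 13.9 and 8.63 FPKM, whose direction was opposite. All rows at this locus had failed in the culture table, so culture gives no level for Angptl2.

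Apln (ENSMUSG00000037010, chromosome X from 45378323 to 45388030), the apelin gene, was the second ligand by level in cultured cells. It was at 22.9 FPKM in DMSO cells and 9.29 FPKM in treated cells, a log2 difference of -1.22. The ratio of 0.405 had a range of 0.136 to 1.21. In the tumours both libraries had nearly the same level, 18.8 and 18.4 FPKM, with a ratio of 0.978 and a range of 0.626 to 1.53. Among the ligands compared in both settings the differences in culture and tumours had opposite signs for Vegfa and Vegfb, and the same sign for Vegfc, Figf, Angpt1, Angpt2 and Apln.

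**Figure D3:**
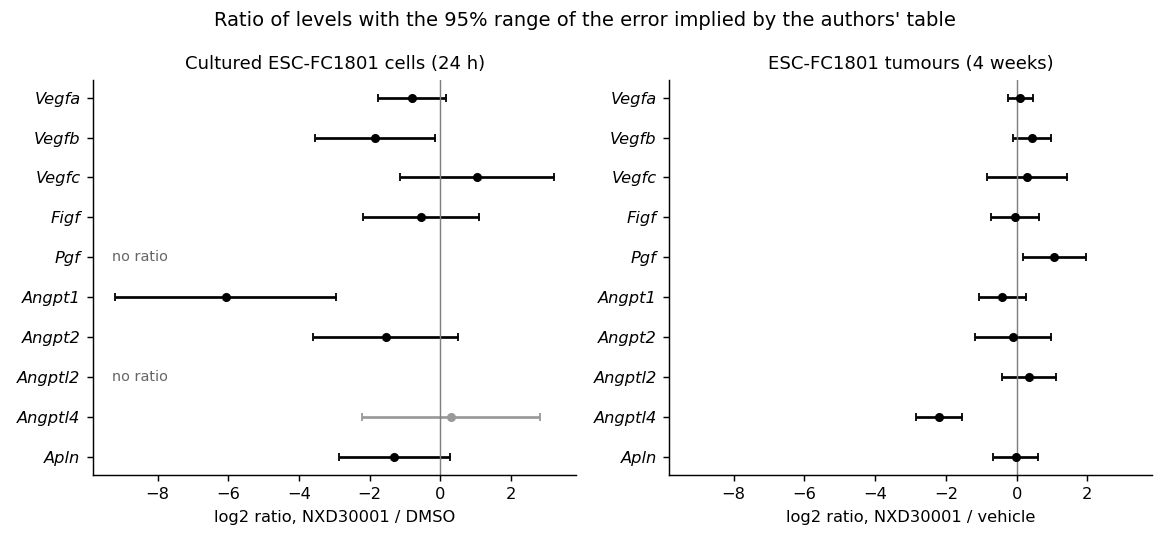
log2 of the ratio of the NXD30001 level to the DMSO or vehicle level for each ligand (points), with bars for the 95% range of the model error, in culture (left) and tumours (right). Grey marks Angptl4 in culture, under the 1 FPKM minimum. Only the bars of Vegfb and Angpt1 in culture and of Pgf and Angptl4 in the tumours stay clear of 0.

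By that measure 2 of the 7 compared ligands in culture, Vegfb and Angpt1, and 2 of 10 in the tumours, Pgf and Angptl4, had ratios whose 95% range leaves out 1. The same was true of 24.2% of all compared genes in culture and 16.6% in the tumours, so the counts are near those of genes at large. The order of levels in the vehicle tumour was Vegfa, Angptl2, Angptl4, Vegfb, Apln, Figf, Angpt1, Pgf, Vegfc and Angpt2. Apln and Figf, Angpt1 and Pgf, and Vegfc and Angpt2 were neighbours at nearly equal levels. In the treated tumour Angptl4 stood below Vegfb and level with Apln, and Pgf above Angpt1. In culture the order of the compared ligands with DMSO was Vegfa, Apln, Figf, Vegfb, Angpt2, Angpt1 and Vegfc. Because the tables were scaled separately, no level of one was ranked against a level of the other.

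Promoters of 3 ligands that were lower in treated cells are shown because HIF binds a short core, ACGTG or GCGTG, that can be looked for in them. Windows from RefSeq (GRCm38.p6, 300 bases of which the last 50 follow the start) were found for 7 of the 10 ligands, Figf by its newer symbol, and not for Angpt1, Angpt2 and Angptl4. The core, read on both strands and printed in capitals, can lie inside the E-box CACGTG. The windows of Vegfa (chr17:46032328-46032627, minus strand), Vegfb (chr19:6987602-6987901, minus strand) and Apln (chrX:48034804-48035103, minus strand) read as follows, 5′ to 3′.
Vegfa: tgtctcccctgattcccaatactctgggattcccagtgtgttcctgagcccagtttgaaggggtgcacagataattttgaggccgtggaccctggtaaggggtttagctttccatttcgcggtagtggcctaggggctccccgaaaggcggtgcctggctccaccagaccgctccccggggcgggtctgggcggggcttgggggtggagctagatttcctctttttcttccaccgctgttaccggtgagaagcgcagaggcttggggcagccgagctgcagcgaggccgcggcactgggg
Vegfb: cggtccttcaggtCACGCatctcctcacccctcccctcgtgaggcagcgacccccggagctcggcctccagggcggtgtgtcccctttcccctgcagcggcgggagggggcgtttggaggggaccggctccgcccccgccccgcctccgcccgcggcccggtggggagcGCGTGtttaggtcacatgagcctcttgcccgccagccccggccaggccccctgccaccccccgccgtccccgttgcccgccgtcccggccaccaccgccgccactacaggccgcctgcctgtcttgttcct
Apln: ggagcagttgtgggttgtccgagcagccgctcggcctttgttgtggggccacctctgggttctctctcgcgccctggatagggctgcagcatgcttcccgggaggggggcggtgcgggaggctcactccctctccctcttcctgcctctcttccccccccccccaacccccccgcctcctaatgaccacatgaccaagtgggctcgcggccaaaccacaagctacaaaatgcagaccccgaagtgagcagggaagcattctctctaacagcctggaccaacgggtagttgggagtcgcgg
The Vegfb window held 2 matches, as CACGC on the printed strand and as GCGTG. The windows of Apln and of this Vegfa start held none. A window at a second listed Vegfa start (chr17:46025114-46025413) held 2, but it lies within the gene, downstream of the first start. Both of its matches fall in letters that code for VEGF-A protein, so they were not read as promoter sites. Of 9 ligand windows, 3 had a match, that one included, beside 43.8% of the 32851 windows of all genes. No match says only that these letters are not in this window.

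The genes of the HIF factors and their oxygen sensors were lower in the treated cells about as often as genes in general, 6 of 9 compared beside 59.4% of all. Hif1a, the oxygen-regulated HIF subunit, was at 77.7 FPKM in DMSO cells and 51.2 FPKM in treated cells, and Arnt, its partner, at 97.9 and 46.1 FPKM. In this list 3 genes were at least 2-fold lower, beside 24.8% of all genes, and none 2-fold higher, with a median of -0.59. A list of 20 compared HIF targets, chosen with earlier results of these data known, holds none of the ligands and shares Egln3 with the list above. It had 17 members at least 2-fold lower and none 2-fold higher, with a median of -1.41. Ankrd37, an ankyrin repeat gene, was at 49.5 and 2.06 FPKM, and Ddit4, an MTOR inhibitor gene, at 76.3 and 5.13 FPKM. The difference of Vegfa (-0.79) was smaller in size than the median of that list, and Apln (-1.22) was near it. In the tumours the same list had 22 compared members, of which 11 were above and 11 below 0, with a median of -0.02. Only Car9, a carbonic anhydrase gene, was at least 2-fold lower there (37.0 and 8.60 FPKM). Hif1a was at 55.8 and 55.3 FPKM. Angptl4, also a known HIF target, was under 1 FPKM in culture and had a difference of -2.13 in the tumours. The part of HIF in the differences of the ligands was not tested.

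Most receptor genes were near 0 in culture. Flt1 and Tie1 were listed at 0 in both culture libraries, Kdr, Flt4 and Aplnr were under 0.2 FPKM, and the co-receptor gene Nrp2 was the most abundant at 39.6 FPKM in DMSO cells and 20.4 FPKM in treated cells. In the tumours 7 of the 9 receptor genes in the table were lower with treatment, beside 52.7% of all compared genes, and 2 were at least 2-fold lower, beside 6.93%, with a median of -0.31. Tek, the receptor gene of both angiopoietins, was at 6.30 FPKM in the vehicle tumour and 0.864 FPKM in the treated one, and its relative Tie1 at 6.08 and 2.10 FPKM. The authors' deposited table called Tek. The main VEGF receptor gene, Kdr, was at 2.33 and 1.14 FPKM, a difference of -0.64 on the log2(FPKM + 1) scale. Its plain log2 ratio was -1.03 with a model error of 0.52. The ratio of 0.488 has a range of 0.241 to 0.988 that leaves out 1, as for 16.6% of all compared genes, and it was not called. Flt1, which binds VEGF-A, VEGF-B and PGF, was at 4.43 and 4.77 FPKM, and Aplnr at 1.17 and 1.32 FPKM. The co-receptor gene Nrp2 had 88.8 and 71.5 FPKM, and Nrp1 had 36.1 and 30.6 FPKM.

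**Figure D4:**
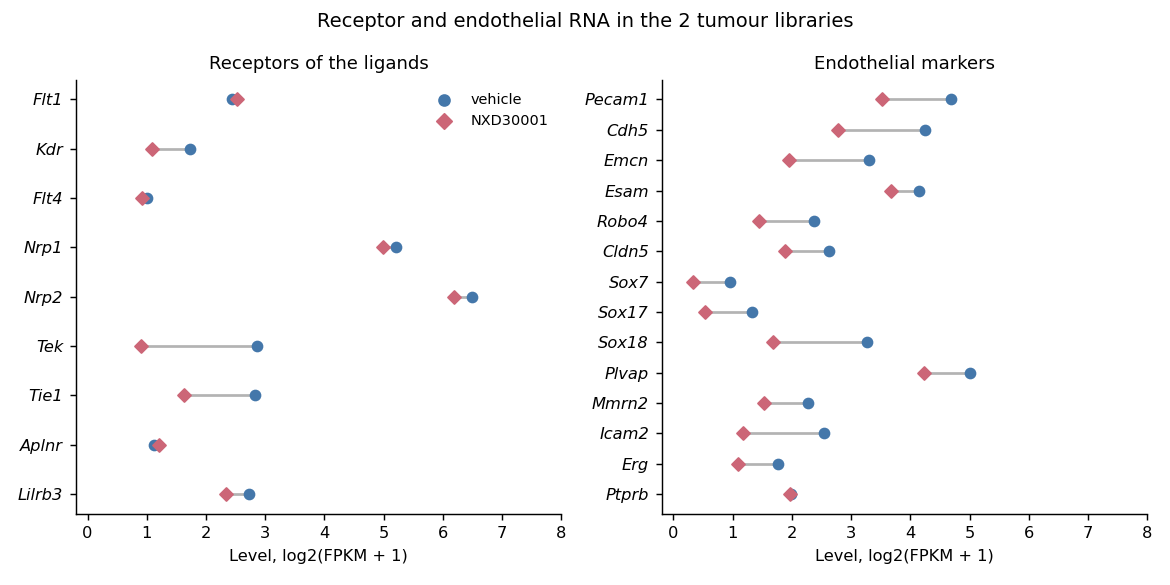
Levels as log2(FPKM + 1) of 9 receptor genes (left) and 14 endothelial markers (right) in the vehicle (blue circles) and NXD30001 (red diamonds) tumour libraries. Tek and Tie1 lie further left with NXD30001, Flt1 and Aplnr do not, and every endothelial marker lies at or left of its vehicle level.

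Markers of vessel cells differed as well. Lower levels in the treated tumour were found for all 13 compared endothelial markers, for 5 of them by 2-fold or more. Among all compared genes of the tumours 52.7% were lower, and 6.93% were lower by 2-fold or more. The endothelial markers summed over 14 estimated genes to 134 FPKM in the vehicle tumour and 63.3 FPKM in the treated one. In culture the same list summed to 0.158 and 0.134 FPKM, with 9 of 15 estimated markers listed at 0 in both libraries, Cdh5, Emcn and Cldn5 among them. All 10 macrophage markers were lower in the treated tumour as well, with sums of 1162 and 821 FPKM. Pericyte markers went both ways: 5 of 8 compared were lower (median -0.15), among them Anpep at 39.8 and 4.26 FPKM, while Acta2, at 82.0 and 186 FPKM, carried their sum from 161 to 252 FPKM. Pdgfrb was higher as well, by 1.10. Past 2-fold, 2 of the 8 were higher, Acta2 and Pdgfrb, and 1 was lower, and all 3 carry a call in the authors' deposited table. Schwann cell markers summed to 179 and 606 FPKM. All 11 compared were higher in the treated tumour, 10 of them by 2-fold or more, beside 7.32% of all genes. Red blood cell markers had the largest difference of these lists, with sums of 315 and 5.10 FPKM. Of the 5 compared, the 4 globin genes each carry a call downward in the authors' deposited table. They are the alpha copies Hba-a1 and Hba-a2 and the beta copies Hbb-b1 and Hbb-b2, and copies within a pair can share reads. Alas2 went the other way, by 1.83, without a call. Mast cell markers summed to 12.5 and 52.4 FPKM, with 6 of 7 compared higher, 4 of them by 2-fold or more, beside 7.32% of all genes. The part of these cell types in the differences of Angptl4, Pgf, Tek and Tie1 was not tested.

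Genes that share regulation by PPAR nuclear receptors with Angptl4 were given beside it, from a list chosen with earlier results of these data known. In the tumours 2 of 9 compared members were at least 2-fold lower, beside 6.93% of all genes. They were Fabp4, a fatty acid binding protein gene, at 65.8 and 12.5 FPKM, and Cd36, a fatty acid transporter gene, at 10.3 and 1.68 FPKM. Both are also expressed by capillary endothelium and adipocytes. Ucp2 was lower within 2-fold (410 and 225 FPKM, called in the authors' deposited table), and Pdk4 was higher (24.3 and 45.6 FPKM). Of the 9 members 3 were above and 6 below 0, and the median was -0.20. Of the 7 adipocyte markers 1 was compared, Cfd, with a difference of -0.88. Adipoq, at 0.818 and 0.228 FPKM, stayed under the minimum, as did Cidec, which was higher with treatment. Of the 7, 1 was listed at 0 with vehicle and 2 with NXD30001. The 7 adipocyte markers summed to 4.83 and 2.13 FPKM. Their part in the Angptl4 difference was not tested. In culture none of 7 compared members was past 2-fold, where 24.8% of all genes were lower and 12.6% higher by that much.

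Other secreted factors moved in culture with a wider spread than the 7 compared ligands. Of 10 compared growth factor genes, 6 were at least 2-fold lower and 1 was at least 2-fold higher, with a median of -1.17. Among all compared genes in culture 24.8% were at least 2-fold lower and 12.6% at least 2-fold higher, with a median of -0.25. Pdgfa, a platelet-derived growth factor gene, was at 119.9 and 14.0 FPKM, and Fgf2, a fibroblast growth factor gene, at 3.31 and 0.0974 FPKM. Cyr61, a matrix-bound integrin ligand gene, was higher at 10.1 and 54.1 FPKM. In the tumours all 13 compared members were within 2-fold, with a median of -0.19 beside -0.03 over all genes. Of the secreted inhibitors, Serpinf1, which encodes PEDF, was lower in both settings, at 5.20 and 0.188 FPKM in culture and 458 and 135 FPKM in the tumours. The inhibitor gene Thbs1 was at 8.32 and 45.3 FPKM in culture and 140.3 and 131 FPKM in the tumours. The median of the inhibitor list was 0.08 in culture and 0.11 in the tumours, with members on both sides of 0.

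**Figure D5:**
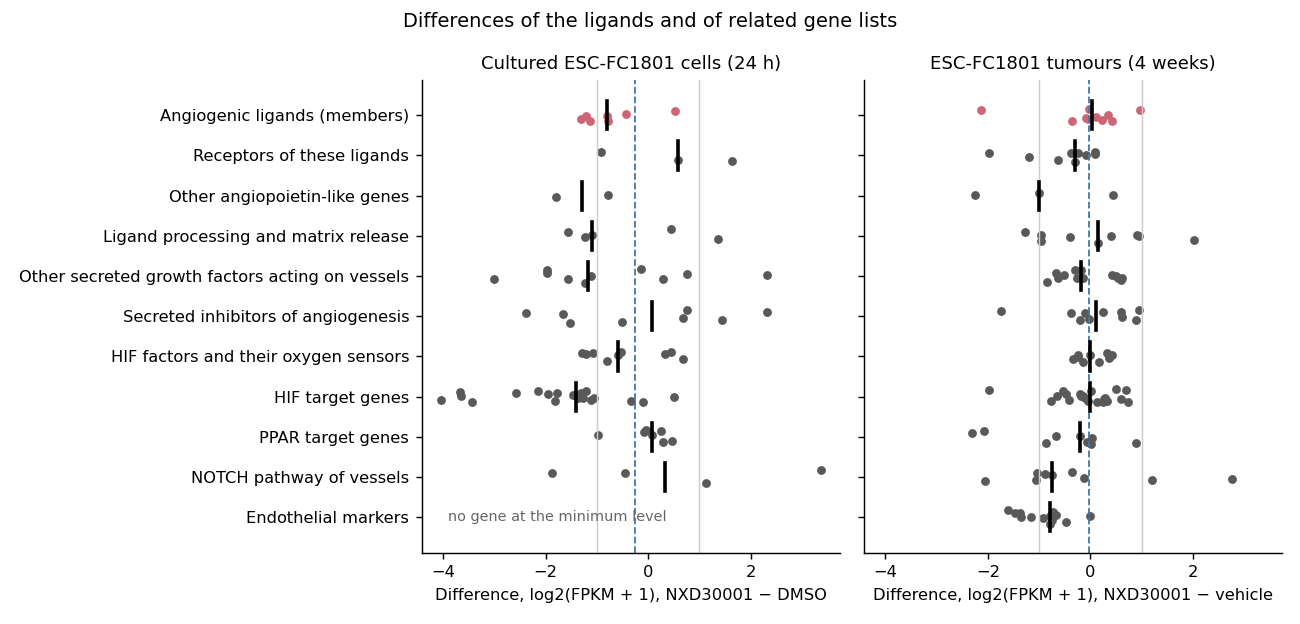
Differences on the log2(FPKM + 1) scale, NXD30001 minus DMSO or vehicle, of the ligands (red) and of 10 related lists (grey), 1 point per compared gene. Black bars are list medians, the dashed line is the median of all compared genes and grey lines mark 2-fold. In culture the HIF target points lie mostly left of the 2-fold line (median -1.41), and in the tumours the endothelial points lie left of or at 0.

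Among genes that bring these ligands into active form, Ccbe1, a cofactor of VEGF-C processing, was higher in the treated tumour, at 0.827 and 6.44 FPKM. Its difference was 2.03, and its plain log2 ratio was 2.96 with a model error of 0.78 and a call in the authors' deposited table. The protease gene Mmp14 was lower, at 134 and 54.6 FPKM, and Mmp9, a protease that releases VEGF-A from matrix, was at 90.2 and 45.8 FPKM. Of 9 compared genes of this list 1 was 2-fold higher or more and 1 was 2-fold lower or more, close to the shares of all genes (7.32% and 6.93%). Plat, tissue plasminogen activator, was at 36.1 and 70.6 FPKM. The loci of Ccbe1 and Mmp14 are shared with other rows.

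A search for genes with the same pair of differences as Vegfa, over 9481 genes at 1 FPKM or more in all 4 libraries, found 531 within 0.25 of it. The nearest were CT025667.1, Fam115a, Impad1, Banp and Tnfrsf12a, at distances of 0.01 to 0.03. For Angpt2 there were 599 such genes of 9482, the nearest being Dhx29, Rnaset2b, Hgsnat, AL731773.9 and Ipo9. With likeness over 2 differences only and so many genes at that distance, the pattern of either ligand does not set it apart.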

How the data were processed

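Per the labels' protocols, Trizol and a RiboPure kit gave the total RNA, and the libraries followed Illumina's recommendations. Reads were handled with TopHat 1.2.0 and Cufflinks 1.0.2, beside CASAVA and Cuffdiff, on build mm9, per the submitters' processing notes. Strand handling was not stated there. The deposited tables hold 1 level per library in FPKM, with the fold ratio, its natural log, a p-value, and a statistic and q-value used as scores, per the file headers. Levels were used as deposited, from rows with status OK. Failed rows (705 in culture, 347 in tumours) are listed at 0 without being measured zeros.

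Differences were taken on log2(FPKM + 1), for genes that reached 1 FPKM in either library, and genes past 2-fold were counted (Python 3.11.15, pandas 2.3.3). The counting was tested on simulated data. Dividing the deposited natural log of the fold by the deposited statistic, and moving to log2, gave the model error. Relative depth came from 46 culture and 69 tumour genes whose error was that of 1 fragment in each library. Deposited starts count from 0 (end minus start equalled the GENCODE gene length at 10580 of 19955 loci held by 1 gene), so 1 was added. Groups came from the titles. In 1 label field every sample is named a cultured cell sample, but titles and treatments put 2 in tumours.

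The 10 members and 18 other gene lists were chosen with earlier results of these data known. Named were all members, every receptor and HIF factor gene where useful, and up to 4 genes with the largest difference from each other list in each comparison. Alternatives changed the pseudocount, the minimum level, the centring, the scaling and the use of shared loci.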

Additional observations from a re-analysis of the deposited data

Results flagged for a closer look

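Tek, the receptor gene of the angiopoietins, moved past 2-fold in opposite directions in the 2 settings. It was at 0.0324 FPKM in DMSO cells and 2.18 FPKM in treated cells in culture, a difference of 1.63 on the log2(FPKM + 1) scale. The plain log2 ratio was 6.07 with a model error of 1.21, and the authors' deposited table called it (q-value 4.92e-05). In the tumours it was at 6.30 and 0.864 FPKM, which is -1.97 on that scale, with a plain log2 ratio of -2.87, a model error of 0.88 and a call in the same table (q-value 0.0422). The difference between the settings was not tested, since each group has 1 library. No ligand did this.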

How the results depend on the processing

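Each compared ligand, 7 in culture and 10 in the tumours, kept the sign of its difference under every alternative that could be run for it (112 values, 0 changes of sign). Only centring and equal upper quartiles could have changed a sign, since the other alternatives keep the order of the levels. A changed minimum or leaving out shared loci does not alter the value of a ligand that stays in. Of the 112 values 110 moved by less than the model error or not at all. The 2 that moved by more were both of Angpt1 in culture, to -3.49 with a pseudocount of 0.1 FPKM and -6.07 as a plain ratio. The count of ligands at least 2-fold lower in culture, 3, went to 1 when differences were centred on the median of all genes, to 2 with a minimum of 3 FPKM, and to 4 with a pseudocount of 0.1 FPKM and as a plain ratio. The count at least 2-fold higher in culture, 0, went to 1 as a plain ratio, by Vegfc. In the tumours the count at least 2-fold higher, 0, went to 1 with a pseudocount of 0.1 FPKM, as a plain ratio and after centring, each time by Pgf. Centring moved all culture differences up by 0.25 and took the share of lower genes among all those past 2-fold from 66.3% to 50.8%, and equal upper quartiles took it to 55.9%. The medians over the ligands ran from -1.30 to -0.56 in culture and from 0.04 to 0.10 in the tumours. Leaving out 1 library was not run, since each group has 1. No paired analysis was possible because each group has 1 library and the labels give no replicate numbers. Angptl2 and Angpt2 drop out when shared loci are left out.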

Other observations

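Outside the 10 ligands, their relative Angptl7 was the most abundant angiopoietin-like gene of the tumours. It was at 1372 FPKM in the vehicle tumour and 286 FPKM in the treated one, a log2 difference of -2.26 with a model error of 0.44, close to that of Angptl4, and the authors' deposited table called it. In culture it was at 1.00 and 0.166 FPKM. Its locus is shared with Mtor, which was at 37.2 and 33.7 FPKM in the tumours. Anpep, an aminopeptidase gene of vessel and stromal cells from the pericyte list, was at 39.8 FPKM in the vehicle tumour and 4.26 FPKM in the treated one.

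Genes of the NOTCH pathway, which shapes vessel sprouts, went both ways in the tumours, and none was called there in the authors' deposited table. Dll4, a ligand gene of sprouting endothelium, was at 6.49 and 0.802 FPKM in the tumours, with a ratio range of 0.0128 to 1.19 that includes 1, and was listed at 0 in both culture libraries. The largest difference of the list in the tumours was upward, for the NOTCH target gene Heyl, listed at 0 with vehicle and at 5.81 FPKM with NXD30001, and its relative Hey1 was at 0.390 and 2.20 FPKM. Jag1, another NOTCH ligand gene, was at 1.42 FPKM in DMSO cells and 24.1 FPKM in treated cells, and its tumour levels were 13.2 and 7.44 FPKM. Of 9 compared NOTCH genes in the tumours 3 were lower and 2 higher by 2-fold or more, beside 6.93% and 7.32% of all genes, with a median of -0.75. The locus of Dll4 is shared with another row.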
